A study of Homo sapiens with 6 samples.

Results

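The genes described here are 10 members of the transforming growth factor beta (TGF-beta) pathway, followed in OVCAR3 ovarian cancer cells with and without knockdown of NUF2. They are the ligands TGFB1, TGFB2 and TGFB3, the ligand storage protein LTBP1, the receptors TGFBR1, TGFBR2 and TGFBR3, the feedback inhibitors SMAD7 and SKIL, and the target gene TGFBI. The members were taken by name for their place in the pathway, with earlier results of these data known, and 10 of the 19973 genes in the table are members. NUF2 is a component of the NDC80 complex, which links kinetochores to spindle microtubules in mitosis.

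OVCAR3 is an established human cell line from ovarian carcinoma. The study compared 3 libraries of cells transfected with shNC, a control hairpin, with 3 libraries of cells transfected with shNUF2, a hairpin against NUF2. Both groups were labelled with the wild-type genotype. The paper reports cloning of the NUF2 hairpin into the phU6-shRNA-CMV-puromycin vector and describes stable shNUF2 and shNC lines of OVCAR3. It names neither the vector of shNC nor a selection step, and describes the sequenced cells only as transfected. The sources used here do not give whether a line came from 1 clone, and each group holds 1 hairpin, so that loss of NUF2 and other effects of that hairpin cannot be told apart.

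TGF-beta ligands are secreted in a latent complex with their own propeptide, which latent TGF-beta binding proteins such as LTBP1 tether to the extracellular matrix until integrins, thrombospondin or proteases release the active dimer. The dimer brings together the type II receptor (TGFBR2) and the type I receptor (TGFBR1), often with the help of the co-receptor betaglycan (TGFBR3), and the type I receptor then phosphorylates SMAD2 and SMAD3. These join SMAD4 in the nucleus and act on target genes, among them SMAD7 and SKIL, whose products dampen the signal. In epithelial and carcinoma cells the pathway is known both for growth arrest and for epithelial-mesenchymal transition.

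The hairpin and the promoters of the members that changed most at the ligand step are shown first, because they are the designed and the regulatory sequences to which the values below belong. The antisense strand of the shNUF2 hairpin is printed 5′ to 3′ with its seed, bases 2 to 8, in capitals. The second line gives the only stretch in a member's longest annotated 3′ UTR that was complementary to this seed, with the complementary bases in capitals. It lies in the 3′ UTR of TGFB2 at chr1:218443828-218443834 on the plus strand (GRCh38, GENCODE annotation).
shNUF2 antisense strand: aAATTGCTgaatggtaagaag
TGFB2 seed match: gcaagtgggcAGCAATTatttttgtgt
Of the 10 members, 1 held this match, beside 1965 of 12807 tested genes with a 3′ UTR (15.3%). TGFB2 was among the members with higher counts in shNUF2 cells, as described below.

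Promoter windows were taken from RefSeq (GRCh38.p14). All 10 members were matched, with 23 windows in all, and each window holds the 250 bases before an annotated start. Matches on either strand to CAGAC, the core of the SMAD-binding element, and to TGACGTCA, the palindromic cAMP response element, are in capitals. The windows lie at chr19:41353923-41354172 on the minus strand for TGFB1, at chr1:218345086-218345335 on the plus strand for TGFB2, and at chr2:32946703-32946952 on the plus strand for the first start of LTBP1.
TGFB1: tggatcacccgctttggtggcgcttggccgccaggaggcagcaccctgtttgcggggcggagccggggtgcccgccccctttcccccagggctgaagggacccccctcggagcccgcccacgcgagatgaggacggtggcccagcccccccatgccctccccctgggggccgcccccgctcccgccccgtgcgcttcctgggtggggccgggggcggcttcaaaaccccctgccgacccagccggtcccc
TGFB2: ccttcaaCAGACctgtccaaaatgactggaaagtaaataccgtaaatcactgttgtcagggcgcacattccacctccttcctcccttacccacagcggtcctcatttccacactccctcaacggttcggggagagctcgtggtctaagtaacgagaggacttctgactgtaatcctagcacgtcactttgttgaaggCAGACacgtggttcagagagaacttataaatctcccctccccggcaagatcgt
LTBP1: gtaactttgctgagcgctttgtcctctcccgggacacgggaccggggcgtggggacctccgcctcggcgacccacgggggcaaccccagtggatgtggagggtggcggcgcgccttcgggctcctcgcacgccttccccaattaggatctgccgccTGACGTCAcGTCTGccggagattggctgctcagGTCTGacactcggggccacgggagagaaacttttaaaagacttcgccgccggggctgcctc
The TGFB1 window held none of the motifs searched and had a GC content of 76.8%. The TGFB2 window held 2 matches to CAGAC and had a GC content of 50.4%. The LTBP1 window held 2 matches to CAGAC and 1 to TGACGTCA, which began 94 bases before the start and did not share letters with the CAGAC match beside it. Over 35116 promoter windows of this length, CAGAC was found in 38% and TGACGTCA in 1.65%. The palindrome GTCTAGAC, found in 0.182% of windows, and the AP-1 motif TGANTCA, found in 6.57%, were found in no window of the 10 members. These matches describe letters only and say nothing of binding in these cells.

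Reads had been counted for every gene in every library, and the library totals ranged from 13057534 to 16995452. Values are given as counts, as normalised counts scaled to a common library size (CPM), or, for comparison of levels between genes, per length of the gene as FPKM. NUF2 itself had 903, 1096 and 1092 counts in the shNC libraries and 281, 290 and 384 in the shNUF2 libraries, a log2 fold change of -1.51 ± 0.08 (SE, n = 3 per group). At least 1 count was found in 14582 to 14691 genes per shNC library and in 15435 to 15536 genes per shNUF2 library. The part of this difference in the results below was not tested. The libraries of a group differed by more than sampling noise, but nothing states that they came from separate cultures, so p-values measure the spread between these libraries, which may be technical. In bulk RNA, fewer cells of a kind and less RNA per cell cannot be told apart.

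NUF2 knockdown was accompanied by changes in most of the 10 genes, and the largest change was in the main ligand. TGFB1, TGFB2, TGFBR1, TGFBR2, SMAD7 and TGFBI were higher in shNUF2 than in shNC cells, LTBP1, TGFBR3 and SKIL were lower, and TGFB3 did not pass the test. At an adjusted p under 0.05, 6 of the 10 members were higher, beside 33.9% of all 12874 genes tested, and 3 were lower, beside 33.8% of all genes. By the study's own rule for differentially expressed genes, read here as a log2 fold change beyond 1 with an unadjusted p under 0.05, 1 member (TGFB1) was higher, beside 9.41% of all genes, and 0 were lower, beside 4.16%. All 10 members passed the filter on low counts. In 9 of 10 members the CPM of the groups did not overlap, 6 being higher (35.2% of all genes) and 3 lower (35.4% of all genes). The median log2 fold change of the members was 0.18, with a range from -0.73 to 1.30, and that of all genes tested was -0.01.

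**Figure D1:**
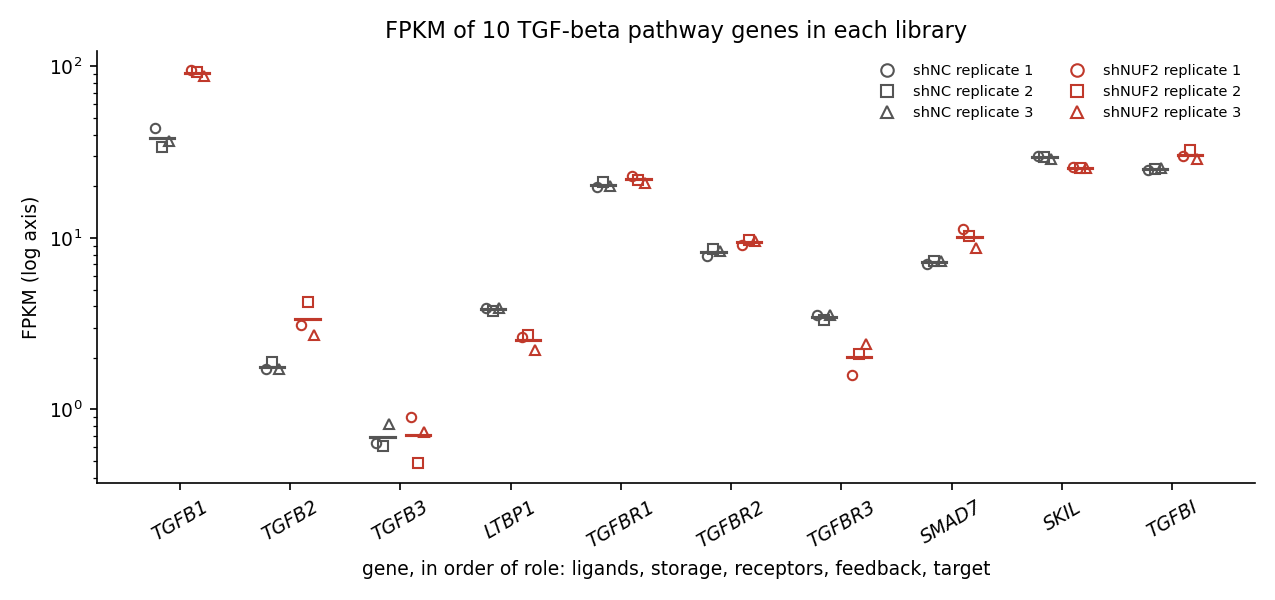
The plot gives the FPKM of each of the 10 genes in each library on a log axis, with circles, squares and triangles for replicates 1, 2 and 3, grey for shNC, red for shNUF2 and a bar at each group mean. TGFB1 lay at 34 to 44 FPKM in shNC and 88.3 to 94.7 in shNUF2 libraries, and TGFB3 lay under 1 FPKM in every library.

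TGFB1 (ENSG00000105329, chromosome 19, 41301587 to 41353922, minus strand) encodes the most widely expressed TGF-beta ligand. It had 2027, 1741 and 2044 counts in the shNC libraries and 4266, 3949 and 4391 in the shNUF2 libraries. The shNUF2 libraries all stood above the shNC libraries, and the groups did not overlap. Its level was 123 ± 17.3 CPM in shNC and 304 ± 12.3 CPM in shNUF2 cells (SD, n = 3), a ratio of 2.46. The log2 fold change was 1.30 ± 0.06 (SE), with a 95% interval from 1.17 to 1.43 and an adjusted p of 6.21e-16. This fold change was higher than that of 93.8% of all genes tested. The highest shNC library, replicate 1, stood at 143 CPM beside 109 and 119 in the other shNC libraries, and leaving out each library in turn gave log2 fold changes from 1.22 to 1.41. Exons of TGFB1 share 215 bases with HNRNPUL1 on the opposite strand, which is 6.64% of the exonic bases of TGFB1. The library kit keeps the strand, but the strand setting of the counting is not given in the sources used here.

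TGFB2 (ENSG00000092969, chromosome 1, 218345336 to 218444619, plus strand) encodes the ligand that depends most on betaglycan for receptor binding. Counts were 146, 180 and 176 with shNC and 258, 336 and 251 with shNUF2. All shNUF2 libraries lay above all shNC libraries, and replicate 2 of shNUF2 was the highest at 25.9 CPM. The mean rose from 10.6 ± 0.585 to 20.6 ± 4.74 CPM (SD, n = 3), a ratio of 1.94. This gave a log2 fold change of 0.95 ± 0.14 (SE), with an interval from 0.67 to 1.23 and an adjusted p of 7.17e-07. It fell just short of the study's fold threshold and passed it, at 1.08, when replicate 3 of shNUF2 was left out. TGFB2 shares 1371 exonic bases (26.6%) with TGFB2-OT1 on the same strand, a transcript that was not analysed here, and how reads there were assigned is not given in the sources used here.

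TGFB3 (ENSG00000119699, chromosome 14, 75958097 to 75983011, minus strand), the least abundant ligand gene of these cells, had 47, 50 and 73 counts with shNC and 65, 33 and 59 with shNUF2. The groups overlapped, and replicates 1 and 2 of shNUF2 were the highest and the lowest of all 6 libraries in CPM. Its log2 fold change was 0.08 ± 0.25 (SE) with an adjusted p of 0.789, and the 95% interval, from -0.43 to 0.58, spanned changes in both directions. TGFB3 shares 163 exonic bases (3.32%) with TGFB3-AS1 on the opposite strand.

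LTBP1 (ENSG00000049323, chromosome 2, 32946953 to 33399509, plus strand), the protein that stores latent ligand in the matrix, moved opposite to TGFB1. It had 402, 434 and 485 counts with shNC and 270, 259 and 250 with shNUF2, and every shNUF2 library was below every shNC library. The mean fell from 27.9 ± 0.624 to 18.9 ± 1.94 CPM (SD, n = 3), a ratio of 0.677. The change of -0.57 ± 0.10 on the log2 scale (SE) had an interval from -0.76 to -0.37 and an adjusted p of 9.53e-06. LTBP1 shares 249 exonic bases (3.4%) with the antisense gene AC019127.1.

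**Figure D2:**
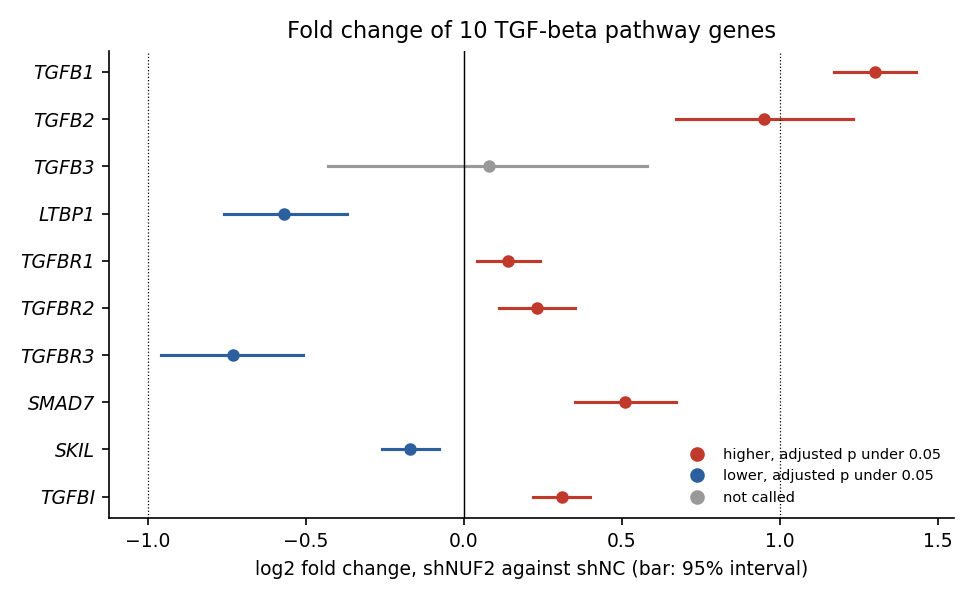
The plot gives the log2 fold change of each of the 10 genes (shNUF2 against shNC, 3 libraries each) with its 95% interval as a bar, and dotted lines at a log2 fold change of 1 in each direction. TGFB1 was the only member beyond the dotted lines, at 1.30, and the interval of TGFB3 spanned 0.

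The signalling receptors changed little. TGFBR1 (ENSG00000106799, chromosome 9, 99104038 to 99154192, plus strand), the type I receptor kinase, had 1915, 2273 and 2335 counts with shNC and 2175, 1939 and 2160 with shNUF2. In CPM the groups did not overlap, with 135 to 142 against 144 to 161, but in FPKM they did, with 19.9 to 21.2 against 20.8 to 23.1. The log2 fold change of 0.14 ± 0.05 (SE) had an adjusted p of 0.0162. The call was lost when libraries were scaled by their totals only (adjusted p = 0.0703), with limma on log2 FPKM at either pseudocount (0.11), and without shNC replicate 1 (0.0505), shNC replicate 3 (0.0555) or shNUF2 replicate 1 (0.134, log2 fold change 0.09).

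TGFBR2 (ENSG00000163513, chromosome 3, 30606601 to 30694142, plus strand), the type II receptor that binds the ligand first, had 762, 923 and 977 counts with shNC and 864, 870 and 999 with shNUF2. In CPM all shNUF2 libraries were higher, at 65.8 ± 1.51 against 56.1 ± 2.18 (SD, n = 3), a ratio of 1.17. This was a log2 fold change of 0.23 ± 0.06 (SE) with an adjusted p of 0.00118.

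TGFBR3 (ENSG00000069702, chromosome 1, 91680343 to 91906335, minus strand), the betaglycan co-receptor, showed the largest decrease among the members. Its counts were 430, 447 and 517 with shNC and 187, 235 and 315 with shNUF2. The groups did not overlap, and the shNUF2 libraries were further apart than the shNC libraries, with 13.9, 18.1 and 20.9 CPM against 30.2, 28 and 30.1 CPM. The mean fell from 29.4 ± 1.26 to 17.6 ± 3.56 CPM (SD, n = 3), a ratio of 0.599. The log2 fold change was -0.73 ± 0.11 (SE), with an interval from -0.96 to -0.51 and an adjusted p of 1.8e-06, and leaving out single libraries moved it between -0.88 and -0.59.

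The feedback inhibitors moved in opposite directions. SMAD7 (ENSG00000101665, chromosome 18, 48919853 to 48952052, minus strand), the inhibitory SMAD that blocks the type I receptor, had 500, 576 and 629 counts with shNC and 775, 672 and 671 with shNUF2. It was higher in every shNUF2 library, at 51.3 ± 6.45 against 35.9 ± 0.704 CPM (SD, n = 3), a ratio of 1.43. On the log2 scale this was a change of 0.51 ± 0.08 (SE), with an adjusted p of 2.92e-06. Of the 3 RefSeq promoter windows of SMAD7, the first held 2 matches to CAGAC, the second 1 and the last 0.

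SKIL (ENSG00000136603, chromosome 3, 170357678 to 170396835, plus strand) encodes SnoN, a corepressor that binds SMAD complexes on DNA. It had 3304, 3642 and 3827 counts with shNC and 2772, 2606 and 3034 with shNUF2. All shNUF2 libraries were lower, at 203 ± 2.69 against 228 ± 4.98 CPM (SD, n = 3), a ratio of 0.89. The change was small, -0.17 ± 0.04 on the log2 scale (SE), and passed the test with an adjusted p of 0.00121.

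TGFBI (ENSG00000120708, chromosome 5, 136028988 to 136063818, plus strand), a secreted matrix protein first found as a TGF-beta induced transcript, had 2713, 3056 and 3343 counts with shNC and 3202, 3267 and 3407 with shNUF2. Raw counts of the groups overlapped, since library totals differed, but CPM did not. The mean rose from 192 ± 1.91 to 238 ± 12.4 CPM (SD, n = 3), a ratio of 1.24, with a log2 fold change of 0.31 ± 0.05 (SE) and an adjusted p of 1.11e-06.

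Per length of gene, TGFB1 was the most abundant of the members in both groups, at 38.3 ± 5.16 FPKM with shNC and 91.9 ± 3.26 FPKM with shNUF2 (SD, n = 3). In shNC cells it was followed by SKIL at 29.6, TGFBI at 25.2, TGFBR1 at 20.4, TGFBR2 at 8.28, SMAD7 at 7.23, LTBP1 at 3.84, TGFBR3 at 3.47, TGFB2 at 1.77 and TGFB3 at 0.69 FPKM. The ranges of neighbours in this order did not meet. The first place of TGFB1 with shNC turns on the deposited gene lengths, such as 3264 bp for TGFB1 and 7782 bp for SKIL. In CPM with shNC, TGFB1 at 123 stood below SKIL at 228, TGFBI at 192 and TGFBR1 at 138. With shNUF2, TGFB1 was also the highest member in CPM, at 304. In shNUF2 cells TGFBI, at 30.5 FPKM, stood above SKIL, at 25.7 FPKM. SMAD7 at 10 FPKM stood beside TGFBR2 at 9.48 FPKM, and LTBP1 at 2.53 beside TGFBR3 at 2.03 FPKM. The ranges within each of these last pairs overlapped, so that their order was not separated by the spread between libraries. TGFB2, at 3.36 FPKM, stood above LTBP1 and TGFBR3 in shNUF2 cells and below them in shNC cells.

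The make-up of the ligand pool was compared within each library, as the share of each ligand in the summed FPKM of TGFB1, TGFB2 and TGFB3. The sum was 40.7 ± 5.07 FPKM with shNC and 96 ± 3.67 FPKM with shNUF2 (SD, n = 3). TGFB1 made up 94.9%, 93.1% and 93.6% of it in the shNC libraries and 96%, 95.1% and 96.2% in the shNUF2 libraries. All shNUF2 shares were higher, by 1.89 percentage points in the mean, or by 3.01 points as a share of reads, without division by gene length. The share of TGFB3 was lower in every shNUF2 library, 0.739% against 1.71% in the mean, a difference of -0.972 points, or -1.47 as a share of reads. The share of TGFB2 overlapped between the groups, at 3.49% against 4.41%, a difference of -0.922 points, or -1.55 as a share of reads. The shares are parts of the same sum, so a rise in TGFB1 lowers the others, and they are not separate results. As genes, TGFB3 had a log2 fold change of 0.08 and TGFB2 of 0.95. With 3 libraries per group the 2-sided exact permutation test cannot go below p = 0.10, which it gave for TGFB1 and TGFB3, and it gave 0.30 for TGFB2.

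Receptor balance was compared in the same way, as the log2 ratio of FPKM within a library. TGFBR2 over TGFBR1 was -1.34, -1.31 and -1.26 with shNC and -1.34, -1.16 and -1.12 with shNUF2, and the groups overlapped (exact permutation p = 0.40). TGFBR3 over TGFBR2 was -1.15, -1.37 and -1.24 with shNC and -2.53, -2.21 and -1.99 with shNUF2, lower in every shNUF2 library by 0.991 in the mean (exact permutation p = 0.10, the smallest this design allows). SMAD7 over TGFBR1 was -1.50, -1.54 and -1.45 with shNC and -1.05, -1.09 and -1.25 with shNUF2, higher in every shNUF2 library by 0.369 in the mean (exact permutation p = 0.10). Adjusted over the 6 shares and ratios, these p-values were 0.15 where the groups did not overlap, 0.36 for the TGFB2 share and 0.40 for TGFBR2 over TGFBR1.

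**Figure D3:**
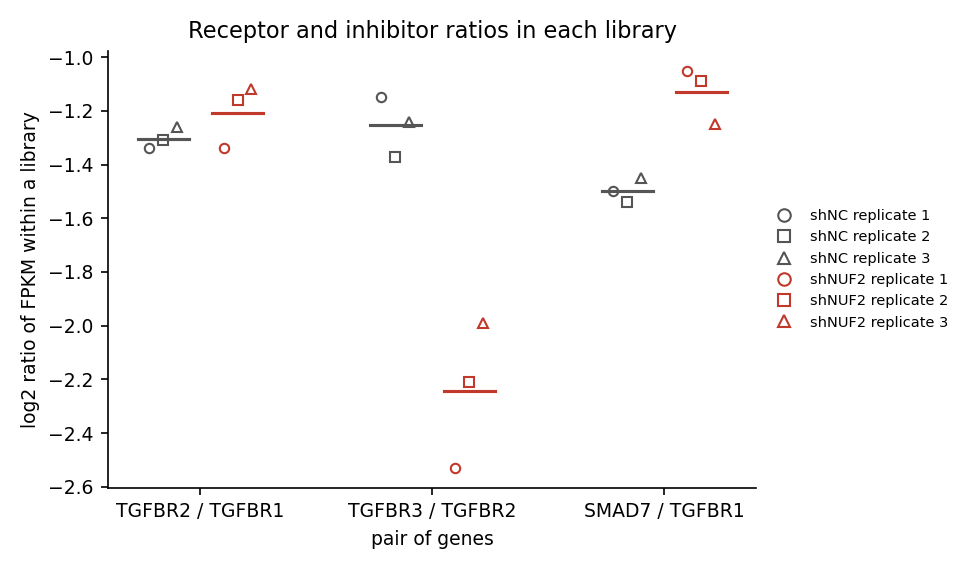
The plot gives the log2 ratio of FPKM within each library for 3 pairs of genes, with circles, squares and triangles for replicates 1, 2 and 3, grey for shNC, red for shNUF2 and a bar at each mean. TGFBR3 over TGFBR2 averaged -1.25 with shNC and -2.24 with shNUF2 without overlap, whereas TGFBR2 over TGFBR1 overlapped.

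The members were set beside 68 other genes of the pathway in 6 lists, of which 65 passed the filter on low counts. Of these, 40 were higher (61.5%) and 15 lower (23.1%) at an adjusted p under 0.05, beside 33.9% and 33.8% of all genes tested, shares against which each list below is to be read. By the study's fold rule 13 were higher (20%) and 0 lower, beside 9.41% and 4.16% of all genes. Their median log2 fold change was 0.36, beside -0.01 over all genes. The remaining genes of the lists were NRROS, which was at 0 in every library, COL1A2 and ACTA2.

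Around the storage and release of the ligand, 9 of 13 tested genes (69.2%) were higher, 3 (23.1%) lower and 1 (MMP2, log2 fold change 0.23) did not pass, with a median of 0.88. MMP2 did pass with DESeq2 size factors (adjusted p = 0.049), with no filter (0.0499), with a minimum of 1 CPM in every library (0.0401), without shNC replicate 3 (0.00235, log2 fold change 0.38) and without shNUF2 replicate 3 (0.0181), and its log2 fold change was 0.13 without shNC replicate 2. Above the level minimum, the largest increases were in 3 genes whose products are known to release active TGF-beta from the latent complex. MMP9, a matrix protease, rose by 2.31 ± 0.35 (log2, SE), from 0.876 ± 0.671 to 4.26 ± 0.284 CPM (SD, n = 3). Its shNC libraries held 23, 5 and 12 counts, and the log2 fold change was 3.03 without shNC replicate 1 and 1.91 without shNC replicate 2. THBS1, the thrombospondin that activates latent TGF-beta, rose from 7.94 ± 0.431 to 34.1 ± 1.99 CPM (SD, n = 3), and ITGB8, a subunit of an activating integrin, from 8.23 ± 0.521 to 35.1 ± 1.8 CPM. Among the relatives of LTBP1, LTBP3 fell by 0.42 and LTBP4 by 0.61 on the log2 scale, and LTBP2 rose by 0.87. LTBP4 was the most abundant of them in both groups, at 42.9 FPKM with shNC and 27.3 FPKM with shNUF2, and FURIN, the protease that cleaves the ligand precursor, fell by 0.27 on the log2 scale.

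Among co-receptors and regulators of the receptors, 8 of 15 (53.3%) were higher, 3 (20%) lower and 4 (BAMBI, SMURF2, WWP1 and USP15) did not pass, with a median of 0.15. Among the 8, STRAP had 0.15 and an adjusted p of 0.00993, and did not pass with library totals only (0.0515) or without shNC replicate 3 (0.0724). The ubiquitin ligases NEDD4L and SMURF1, which act on SMAD proteins and receptors, had log2 fold changes of 0.87 ± 0.06 and 0.79 ± 0.08 (SE), and FKBP1A, which binds the inactive type I receptor, 0.40. TGFBRAP1, a receptor-associated protein, fell by 0.74, ZFYVE9, which presents SMAD2 and SMAD3 to the receptor, by 0.61, and the co-receptor ENG by 0.30 on the log2 scale. The list had 1 gene beyond the study's fold rule, LDLRAD4, at 2.19 from 0.386 CPM, which was named after its values were seen and which did not pass with limma on log2(FPKM + 1) (adjusted p = 0.317) or log2(FPKM + 0.1) (0.102).

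The SMAD proteins that carry the signal split. SMAD3 had 618, 623 and 702 counts with shNC and 1576, 1362 and 1541 with shNUF2, rising from 41.1 ± 2.26 to 108 ± 7.76 CPM (SD, n = 3) with a log2 fold change of 1.40 ± 0.06 (SE) and an adjusted p of 1.13e-16. SMAD2 had 3480, 4147 and 4431 counts with shNC and 2303, 1897 and 2378 with shNUF2, falling from 254 ± 8 to 158 ± 12.5 CPM with a log2 fold change of -0.68 ± 0.05 (SE). Per length, SMAD2 stood above SMAD3 in shNC cells, at 7.06 against 4.46 FPKM, and below it in shNUF2 cells, at 4.29 against 11.4 FPKM. This order turns on the deposited gene lengths, 36426 bp for SMAD2 and 9330 bp for SMAD3, since in CPM SMAD2 stood above SMAD3 in both groups. SMAD4, the common partner, had a log2 fold change of -0.17 with an adjusted p of 0.0392. It did not pass without shNC replicate 2 (adjusted p = 0.116), shNC replicate 3 (0.075) or shNUF2 replicate 2 (0.228, log2 fold change -0.10), nor with DESeq2, limma or a minimum of 1 CPM. Of the 7 SMAD genes, 2 were higher (28.6%) and 5 lower (71.4%), with a median of -0.17. SMAD1, a transducer of bone morphogenetic proteins, fell by 0.89 and the inhibitory SMAD6 by 0.63 on the log2 scale, whereas SMAD9 had 0.62 and an adjusted p of 0.036. SMAD9 did not pass without shNC replicate 2 (adjusted p = 0.0618), shNC replicate 3 (0.0969) or shNUF2 replicate 3 (0.314, log2 fold change 0.34), nor with DESeq2, limma or the replicate number as a block (0.0517).

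Of the 7 genes for corepressors related to SKIL and their regulators, 3 (42.9%) were higher, 2 (28.6%) lower and 2 (SKI and PPM1A) did not pass, with a median of 0.05. PPM1A, at -0.16, was called lower with library totals only (adjusted p = 0.0235), with no filter (0.0266) and without shNC replicate 1 (0.0111). Without shNC replicate 3 its log2 fold change was -0.09 (adjusted p = 0.336). RNF111, a ubiquitin ligase that removes SnoN and SMAD7, had a log2 fold change of 0.54, and TRIM33 0.48. The corepressor TGIF2 fell by 0.40 on the log2 scale. TGIF1 had -0.12, with overlapping groups and an adjusted p of 0.0315. It did not pass without shNC replicate 1 (adjusted p = 0.12), shNC replicate 3 (0.0617), shNUF2 replicate 2 (0.098) or shNUF2 replicate 3 (0.119), nor with DESeq2 or a minimum of 1 CPM.

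Of 18 tested genes that TGF-beta is known to induce, 16 (88.9%) were higher, beside 33.9% of all genes, 1 (COL1A1, -0.39) was lower, beside 33.8%, and 1 (TAGLN, 0.42) did not pass, with a median log2 fold change of 0.68. TAGLN passed without shNUF2 replicate 1 (adjusted p = 0.011, log2 fold change 0.68), and its log2 fold change was 0.17 without shNUF2 replicate 3. Among the 16, PMEPA1 had 0.18 and an adjusted p of 0.0323, and did not pass with library totals only (0.0842), no filter (0.0874) or limma (0.0816 and 0.078), nor without shNC replicate 1 (0.0568), shNC replicate 2 (0.116), shNUF2 replicate 1 (0.0681) or shNUF2 replicate 3 (0.132). SNAI2 and SNAI1, transcription factors of epithelial-mesenchymal transition, rose by 1.87 ± 0.09 and 1.33 ± 0.12 (log2, SE), from 13.8 to 51 CPM and from 7.83 to 19.6 CPM. CCN2, a matricellular protein, rose by 1.17 ± 0.10, from 13 to 29.2 CPM. FN1 at 1.06 and SPHK1 at 1.15 also passed the study's fold rule and were named after their values were seen. Many of these genes are also known to respond to other signals. Of 5 genes that TGF-beta is known to repress in epithelial cells, 2 (40%) were higher, 1 (20%) lower and 2 (ID1 and MYC) did not pass, with a median of 0.01. MYC, at -0.08, was called lower with library totals only (adjusted p = 0.0232) and with no filter (0.0247). It was also called lower without shNC replicate 1 (0.0265) and without shNUF2 replicate 2 (0.0316). Each of these gave 2 lower genes in this list. Without shNUF2 replicate 1, the log2 fold change of MYC was -0.05 (adjusted p = 0.337). ID3 fell by 0.75 ± 0.06 on the log2 scale (SE). ID2 had 0.56 with an adjusted p of 0.0172, and did not pass without shNC replicate 2 (0.0813), shNC replicate 3 (0.0528) or shNUF2 replicate 2 (0.0982). CDC25A had 0.22 with an adjusted p of 0.0145, and did not pass without shNC replicate 1 (0.082) or shNUF2 replicate 2 (0.114), nor with limma.

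**Figure D4:**
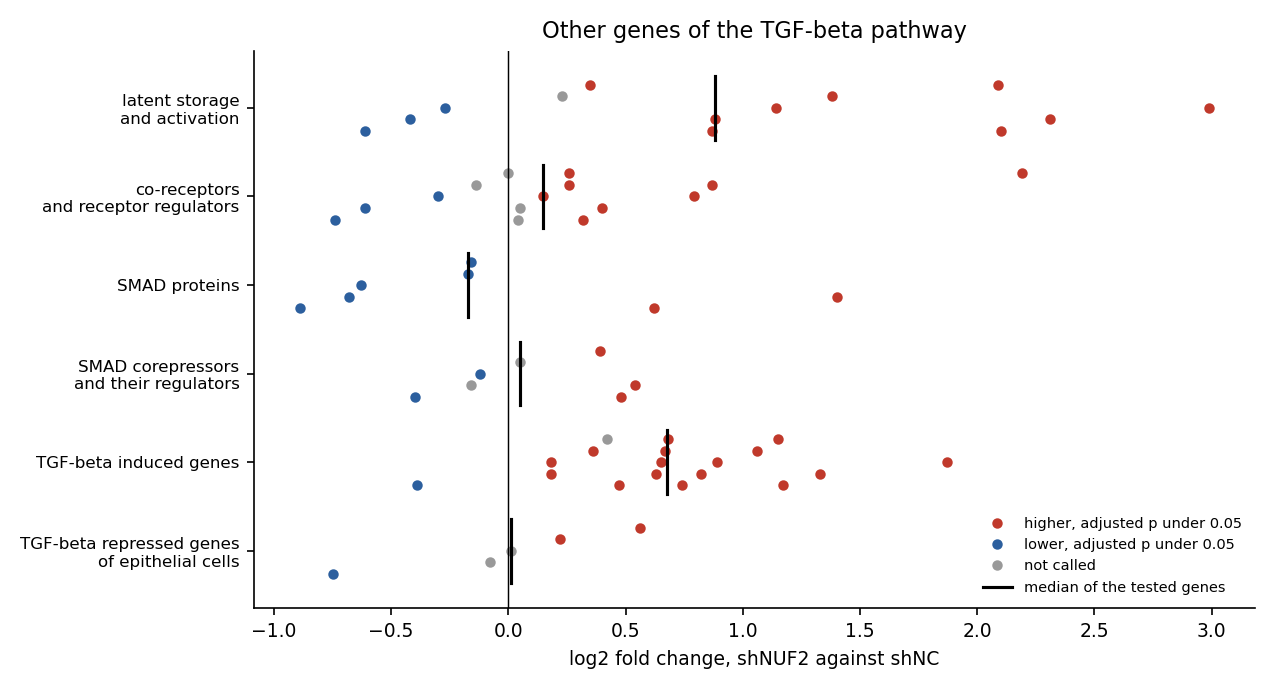
Each dot is the log2 fold change of a tested gene of the 6 pathway lists (shNUF2 against shNC), coloured by its call, with a black bar at the median of each list. The medians ran from -0.17 for the SMAD proteins to 0.88 for latent storage and activation.

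Markers of the cell line and of other cells were read in the same libraries. The 9 markers of ovarian carcinoma summed to 1520 to 1620 CPM with shNC and 1660 to 1770 CPM with shNUF2, carried by KRT7, KRT8 and MSLN. These markers split: of 8 tested, 4 were higher and 3 lower at an adjusted p under 0.05. KRT8 passed the study's fold rule at 1.04, whereas MSLN and MUC16 each fell by 0.75 and KRT7 by 0.22 on the log2 scale. The groups overlapped for KRT7, its log2 fold change was -0.14 without shNC replicate 3, and it did not pass with DESeq2 (adjusted p = 0.0742). EPCAM, among the 4 higher at 0.69, did not pass without shNUF2 replicate 1 (adjusted p = 0.078). It lay at 3.39 CPM with shNC and 5.45 CPM with shNUF2, and PAX8 at 10.1 and 15.7 CPM. The sum therefore holds little of EPCAM, PAX8, WT1 and CDH1, and does not establish the identity of the line. WT1 had at most 7 counts in any library, and CDH1, at 1.38 ± 0.592 CPM with shNC and 0.843 ± 0.177 CPM with shNUF2 (SD, n = 3), did not pass the test (adjusted p = 0.118, groups overlapping, log2 fold change -0.72, or -0.31 without shNC replicate 2). The 7 fibroblast markers summed to 3.44 to 6.82 CPM with shNC and 11.9 to 15.2 CPM with shNUF2, with FAP (3.05) and DCN (1.22) higher by the study's rule and PDGFRA at 0 in every library. The 5 endothelial markers summed to 2.13 to 3.45 and 4.82 to 6.46 CPM, with CDH5 (3.45) and TEK (2.70) higher and PECAM1, the most abundant of them with shNC, at 2.53 and 2.5 CPM. The shNC libraries held only 1, 1 and 4 counts of CDH5 and 1, 6 and 2 of TEK, and without shNC replicate 3 and shNC replicate 2, respectively, the log2 fold changes were 4.29 and 3.63. The 6 leukocyte markers summed to 1.27 to 2.5 and 3.86 to 6.62 CPM. These sums were higher in the shNUF2 libraries, as TGFB1 was at 304 against 123 CPM, and their part in the results was not tested.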

How the data were processed

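RNA was extracted from OVCAR3 cells with shNC or shNUF2 (3 libraries each), and stranded mRNA libraries were sequenced on an Illumina NovaSeq instrument. The submitters' processing notes name cutadapt, HISAT and HTSeq, without versions, and GRCh38.p13. The authors deposited raw counts for 19973 genes with their positions and lengths, and FPKM values that follow from count, gene length and library total (largest relative deviation 2.71e-07). The annotation release and the strand setting of the counting are not given in the sources used here. Groups were taken from the sample labels.

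Counts were tested with edgeR 4.0.16 in R 4.3.3 (filterByExpr, TMM scaling, quasi-likelihood test, all 6 libraries, no covariate), which kept 12874 genes. P-values were adjusted over these genes by the Benjamini-Hochberg method. Standard errors were obtained from the log2 fold change and the root of its F statistic. CPM refer to TMM-scaled libraries. The study's rule states a fold change beyond 1, which was read on the log2 scale. The deposited FPKM were used for levels between genes, and shares and ratios were compared by exact permutation tests with scipy 1.17.1 (Python 3.11.15). Replicate numbers did not pair the libraries, since the correlations of deviations were 0.02, 0.005 and -0.03. The edgeR test with and without the replicate block, DESeq2 and limma on log2(FPKM + 1) were tried on simulated data. The exact permutation tests were not.

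The members and the lists were chosen with earlier results of these data known. The genes named are the 10 members, NUF2, SMAD2 to SMAD4, LTBP2 to LTBP4, and up to 3 genes per list and direction with the largest change among those with an adjusted p under 0.05 and an average of at least 1 log2 CPM, and markers called with a log2 fold change beyond 1. Genes that did not pass, that make up a count of 5 or fewer or whose call changed under an alternative, and markers of the cell line, are named in addition and were chosen after their values were seen. The alternatives were other scalings (DESeq2 size factors, upper quartile, totals only), other filters, DESeq2 1.42.0, limma 3.58.1 on log2(FPKM + 1) and log2(FPKM + 0.1), the replicate number as a block and each library left out. Exon overlaps and 3′ UTRs were read from GENCODE release 29 and promoter windows from RefSeq (GRCh38.p14). The hairpin was read from the study's list of shRNAs. Some genes that this rule takes are not reported here, and other experiments of the study were not analysed here.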

Additional observations from a re-analysis of the deposited data

How the results depend on the processing

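Of the 10 members, TGFB1, TGFB2, LTBP1, TGFBR2, TGFBR3, SMAD7, SKIL and TGFBI kept their direction and passed an adjusted p under 0.05 under all 15 alternatives, whereas TGFBR1 lost its call under the 6 alternatives named with it. TGFB3 was never called and its log2 fold change ranged from -0.13 to 0.29 when single libraries were left out, turning negative without shNC replicate 2 (-0.01) and without shNUF2 replicate 1 (-0.13). The number of members higher by the study's fold rule was 1 to 2 when single libraries were left out, the second being TGFB2 without shNUF2 replicate 3. When single libraries were left out, the difference in the TGFB2 share ranged from -1.36 (without shNUF2 replicate 2) to -0.529 percentage points (without shNC replicate 2). As shares of reads, without division by gene length, the differences were 3.01 for TGFB1, -1.55 for TGFB2 and -1.47 for TGFB3. With the replicate block, 6 members were higher and 3 lower, as without it, TGFB1 had a log2 fold change of 1.31, and all genes gave 4349 higher and 4353 lower calls. Over all genes, the study's fold rule applied to the edgeR fit gave 1212 higher and 536 lower, which are not the study's own counts. With a minimum of 1 CPM in every library, which tested 11711 genes, it gave 756 higher, and with limma on log2(FPKM + 1) it gave 430 higher and 206 lower. The pseudocount compresses the fold changes of low genes by its construction, and TGFB2 had 0.64 on that scale. With 3 libraries per group, the exact tests of shares and ratios cannot go below p = 0.10.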
